A study of Mus musculus with 9 samples.

Results

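The regions described here are all those that lie on mouse chromosome 19 in 9 lists of chromatin regions, 5679 of the 185632 regions in the series. The lists come from chromatin immunoprecipitation followed by sequencing (ChIP-seq) of 3 histone marks, H3K4me3, H3K27me3 and H3K27ac, in 3 cell lines derived from mouse pancreatic cancer. Per the labels, Kdm6a was knocked out in 1 female and 1 male line (female KO, male KO), and the remaining male line was wild type (male WT, or WT). All 3 came from pancreas of mice of mixed C57BL/6-SV129 background and were grown in F12/DMEM with EGF and no treatment. How Kdm6a was deleted, how many tumours or clones the lines represent and the age of the mice were not stated in the labels. Each mark and line had 1 library, so no spread between replicates is known, no p-value was computed and every difference below is between libraries. The female KO line differs from WT in sex as well as in genotype, and both KO comparisons of a mark share the same WT library. Chromosome 19 was chosen by the covered length, since the length of its regions relative to WT was the lowest of the 19 autosomes for all 3 marks in male KO cells. That ratio, and the other KO to WT values below, are therefore descriptions.

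The enzyme made from Kdm6a strips methyl groups off histone H3 at the lysine that carries H3K27me3. Polycomb proteins lay that mark down in broad domains over silenced developmental genes. H3K27ac sits on the same lysine at active promoters and enhancers and cannot share a histone tail residue with H3K27me3, and H3K4me3 marks promoters. Mouse chromosome 19 is the smallest autosome and is dense in genes. No gene was placed on the mm9 build of the files here, so regions carry no gene name or sequence, and neither Kdm6a nor pancreatic markers could be used to check the labels of the lines.

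The 9 lists held between 2396174 and 18507923 reads in regions over all chromosomes, a total that moves with the length called and is no library depth. On chromosome 19 the WT lists held 531 H3K4me3, 1023 H3K27me3 and 681 H3K27ac regions. The male KO lists held 554, 729 and 630, and the female KO lists 439, 578 and 514, in the same order of marks. Reads in these regions numbered 576880, 137001 and 171267 in WT, 272897, 156760 and 352951 in male KO cells, and 697598, 711072 and 502145 in female KO cells. Counts ran from 13 to 30351 reads per region.

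In WT, chromosome 19 was covered more densely than nearly any other autosome. H3K27me3 regions covered 12.03% of its 61.3 Mb and H3K27ac regions 7.04%, each the highest share of the 19 autosomes, against medians of 6.04 and 4.57% over the other 18. H3K4me3 covered 5.37%, the rank 2 value, against a median of 3.07%. In male KO cells the shares were 11.7% for H3K27me3 (rank 7 of 19), 7.01% for H3K27ac (rank 3) and 3.98% for H3K4me3 (rank 2). The female KO shares were 18.8% (rank 3), 11.6% (rank 2) and 5.91% (rank 2). The chromosome makes up 2.48% of the autosomal length. It held 5.72% of the autosomal H3K27me3 reads in regions in WT, 3.26% in male KO cells and 3.96% in female KO cells. For H3K27ac these shares were 4.35, 3.24 and 4.13%, and for H3K4me3 4.58, 3.73 and 4.39%. For each mark the male KO line thus gave chromosome 19 its smallest share of reads and WT its largest.

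Regions on chromosome 19 were also wide. The median H3K4me3 region measured 7.2 kb in female KO cells, 4.2 kb in male KO cells and 5.6 kb in WT, against 6, 3.8 and 4.9 kb for the median of the other autosomes. H3K27me3 regions had median widths of 10, 5.6 and 4 kb, and H3K27ac regions 9.6, 5 and 4.8 kb. Reads per kb in regions ranked 1, 2 or 3 among the autosomes in all 9 lists. For H3K27me3 in WT the value was 18.6 reads per kb on chromosome 19 and 16.2 over the other autosomes, taken as their median.

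Relative to WT, the male KO lists covered less of chromosome 19 than of any other autosome for all 3 marks, and this is the measure that chose it. H3K4me3 covered 2.44 Mb in the male KO list and 3.29 Mb in the WT list, a ratio of 0.742. H3K27me3 covered 7.20 Mb and 7.38 Mb, a ratio of 0.976, where the median autosome had 1.62. H3K27ac covered 4.30 Mb and 4.32 Mb, a ratio of 0.996, where the median autosome had 1.37. On H3K4me3 the median autosome had a ratio of 0.856. Chromosome 19 was the lowest autosome in each case and chromosome 1 came next, at 0.7504, 1.08 and 1.06. The gap to chromosome 1 was thus small for H3K4me3 and wider for the H3K27 marks. The covered length in male KO cells stood at 0.866, 0.603 and 0.727 times what the median autosome would give for H3K4me3, H3K27me3 and H3K27ac.

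The female KO line did not place chromosome 19 at the bottom. H3K4me3 covered 3.63 Mb, 1.101 times WT and rank 9 from the lowest. H3K27ac covered 7.12 Mb, 1.65 times WT and rank 7. For H3K27me3 the 11.6 Mb were 1.57 times WT, which was rank 3 from the lowest, above chromosomes 5 and 12 at 1.47 and 1.53. Between the KO lines, without the WT list, the female KO line covered 1.49 times the male KO length for H3K4me3, 1.61 times for H3K27me3 and 1.65 times for H3K27ac. These were ranks 17, 14 and 18 of 19 from the lowest, so chromosome 19 lay towards the high end of that comparison.

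**Figure D1:**
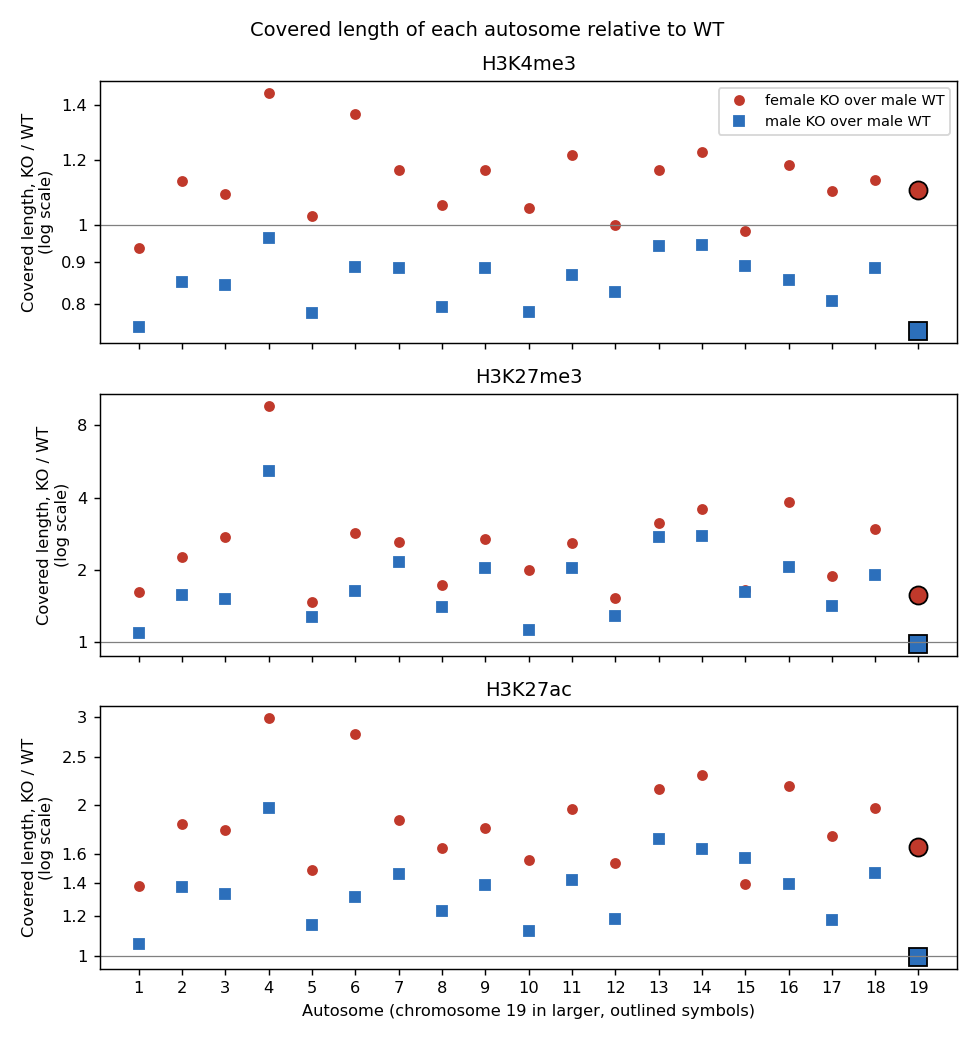
Length covered by regions on each of the 19 autosomes in the female KO (circles) and male KO (squares) lists, divided by the WT length, on a log scale, for the 3 marks. Each point is 1 pair of libraries, and the outlined square of chromosome 19 is the lowest male KO value in each panel, at 0.742, 0.976 and 0.996.

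Covered length depends on where regions are called, so read density was compared over places that all 3 lists of a mark hold. Bins of 200 bp held by all 3 lists were summed per 1 Mb window, and windows with under 20 kb of such bins were left out. The log2 ratio of reads was centred on the median autosomal window of the mark, so that 0 stands for the typical autosomal window and not for equal amounts. In male KO cells the median window of chromosome 19 was at -0.13 for H3K4me3, -0.15 for H3K27me3 and -0.11 for H3K27ac, that is changes of -8.32, -10.01 and -7.65% from the centre. The 31 H3K4me3 windows had quartiles of -0.18 and -0.089, the 33 H3K27me3 windows -0.30 and -0.067, and the 34 H3K27ac windows -0.22 and 0.0029. Among autosomes these medians ranked 1, 2 and 2 from the lowest. Chromosome 1 was next for H3K4me3 at -0.11 and lowest for H3K27me3 at -0.16, and chromosome 5 was lowest for H3K27ac at -0.13. Windows of the other autosomes had quartiles of -0.092 and 0.11 for H3K4me3, -0.12 and 0.12 for H3K27me3 and -0.15 and 0.14 for H3K27ac. The chromosome 19 median was thus below the lower quartile of the other windows for H3K4me3 and H3K27me3 and above it for H3K27ac, and chromosomes 1 and 5 had values close to it.

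The female KO line gave medians near the centre, -0.032 for H3K4me3, 0.10 for H3K27me3 and 0.016 for H3K27ac, at ranks 7, 15 and 10 from the lowest. The H3K27me3 value has the widest spread, with quartiles of -0.20 and 0.29. It turned to -0.030 with windows of 2 Mb, so its side of the centre depends on the window. The H3K27ac value also changed side, to -0.0092 over bins of the KO and WT lists alone. Compared directly, female KO over male KO, chromosome 19 was above the centre for each mark, at 0.11, 0.22 and 0.11 for H3K4me3, H3K27me3 and H3K27ac. Each was rank 17 of 19 from the lowest. Chromosome 4 was the highest autosome there, at 0.38, 0.58 and 0.35, and chromosome 15 the lowest, at -0.26, -0.25 and -0.14.

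**Figure D2:**
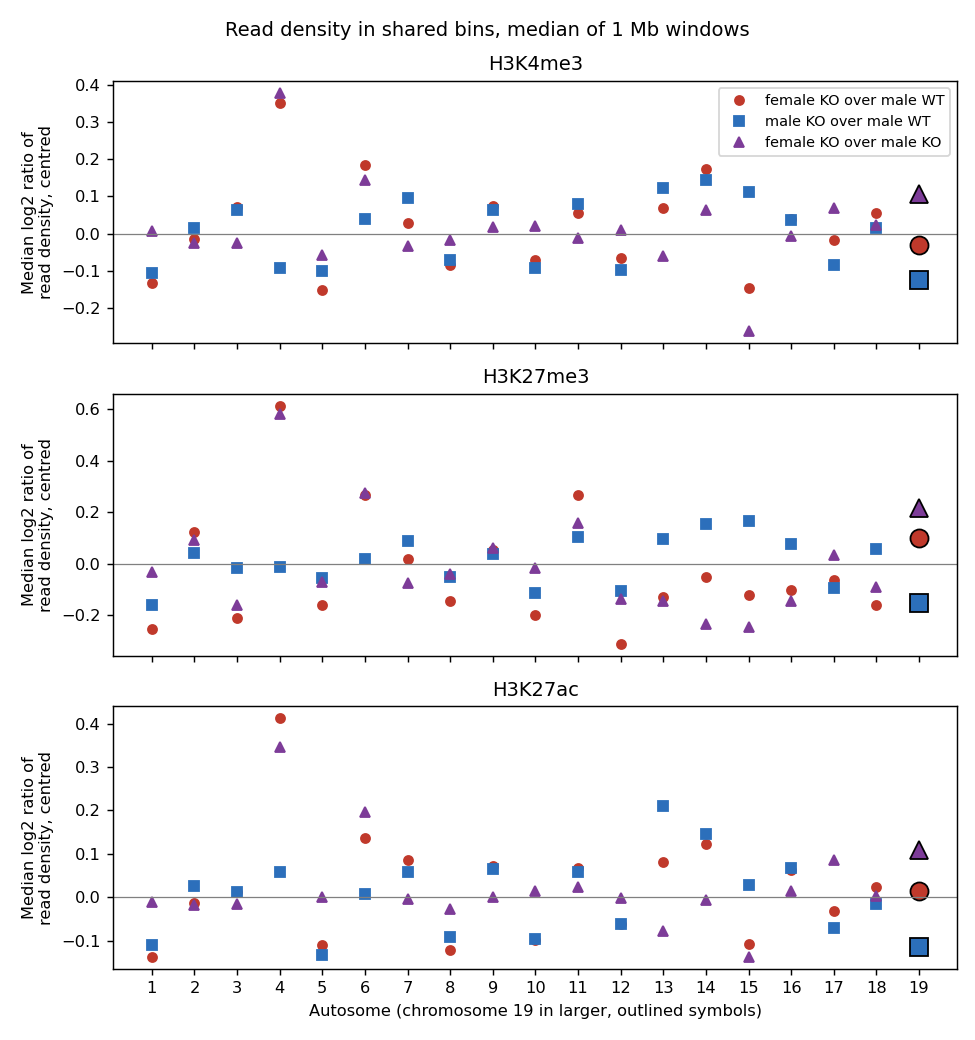
Median over 1 Mb windows of the centred log2 ratio of reads in bins shared by the 3 lists of a mark, for each autosome and for 3 comparisons of libraries. On chromosome 19, outlined, the squares (male KO over WT) are below 0 in all 3 panels and the triangles (female KO over male KO) above 0 in all 3.

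In male KO cells the windows below the centre were spread along the chromosome for H3K4me3. For the H3K27 marks they were spread less evenly, as the stretches of 10 Mb below show. For H3K4me3, 30 of 31 windows were below the centre, from -0.25 to 0.082. For H3K27me3 it was 28 of 33, from -0.42 to 0.41, and for H3K27ac 25 of 34, from -0.79 to 0.44. By construction 50% of the autosomal windows of a mark are below the centre. Few windows were far from the centre, taken as a log2 ratio beyond 0.32 in either direction. In male KO cells 0 of 31 H3K4me3 windows were lower by that much (background over all autosomal windows, 1.39%), 5 of 33 H3K27me3 windows (background 4.17%) and 2 of 34 H3K27ac windows (background 6.45%). Higher by that much were 0, 1 and 1 windows, with backgrounds of 3.11, 4.52 and 7%. In female KO cells 0, 6 and 1 windows were lower (backgrounds 2.15, 26 and 11.4%). There 0 H3K4me3 and 8 H3K27me3 windows were higher (backgrounds 5.69 and 22.7%), and 2 of 34 H3K27ac windows, against 136 of 1085 over all autosomes. For female KO over male KO, 0, 3 and 1 were lower (backgrounds 4.18, 19.8 and 8.2%) and 0, 13 and 9 higher (5.36, 19.9 and 10.1%). For H3K4me3 the male KO shift was therefore many small differences, nearly all of the same sign. For H3K27me3 the windows lower beyond that limit were 15.2%, above the background of 4.17%. H3K27ac windows lay on both sides of the centre, with 25 of 34 below.

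Taking the 23 windows that have a value for all 3 marks, 17 were below the centre in all 3 in male KO cells and 0 were above in all 3. The background over 568 autosomal windows was 21.3% below and 25% above in all 3. With 73.9% of its windows below for all 3 marks, chromosome 19 had the highest share of the autosomes, and chromosome 1 followed with 57.1%. The female KO counts were 5 below and 3 above, with backgrounds of 16.5 and 24.3%. For female KO over male KO, 0 windows were below and 13 above, with backgrounds of 17.4 and 23.6%.

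In stretches of 10 Mb, the male KO medians for H3K4me3 ran from -0.20 between 50 and 60 Mb to -0.036 between 10 and 20 Mb, and all 7 stretches were below 0. For H3K27me3 the stretch from 0 to 10 Mb was at -0.00022 and the other 6 were between -0.28 and -0.079. In that first stretch 3 of 6 H3K27me3 windows were below the centre. For H3K27ac the medians lay between -0.18, from 40 to 50 Mb, and 0.018, from 50 to 60 Mb. Below the centre were 6 of 7 H3K27ac windows from 0 to 10 Mb and 8 of 8 from 40 to 50 Mb. From 20 to 30, 30 to 40 and 50 to 60 Mb it was 3 of 5, 3 of 6 and 2 of 4. The female KO line differed more along the chromosome. Its H3K27me3 median was 0.37 between 0 and 10 Mb and -0.22 between 30 and 40 Mb, with -0.48 in the single window past 60 Mb, and its H3K27ac median was 0.15 and -0.15 in the same stretches. H3K27me3 had a run of 3 neighbouring windows, from 5 to 8 Mb, that were higher beyond that limit in female KO cells. The male KO line had no run of 3 such windows for any mark, in either direction. Runs were not counted on the other autosomes and have no background. Of all autosomal H3K27me3 windows, 22.7% were higher beyond that limit in female KO cells and 4.52% in male KO cells.

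The windows with the lowest mean over the 3 marks in male KO cells were those from 37 to 38 Mb at -0.26, from 41 to 42 Mb at -0.24 and from 57 to 58 Mb at -0.23. All 3 were below the centre for each mark. The highest were from 7 to 8 Mb at 0.057, from 5 to 6 Mb at -0.034 and from 53 to 54 Mb at -0.064. The window from 7 to 8 Mb stood out only for H3K27me3, at 0.41, with 32.0 reads per kb in the male KO list and 19.01 in WT. There H3K4me3 was at -0.082 and H3K27ac at -0.16. In female KO cells the lowest windows were from 36 to 37 Mb, from 43 to 44 Mb and from 40 to 41 Mb, at -0.28, -0.24 and -0.21. The highest were from 7 to 8 Mb, from 6 to 7 Mb and from 5 to 6 Mb, at 0.27, 0.24 and 0.23. The low windows of that line came mostly from H3K27me3, at -0.65 from 36 to 37 Mb and -0.66 from 43 to 44 Mb, beside H3K4me3 values of -0.058 and -0.096.

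Single windows of H3K27ac far from the centre were picked after their values were seen. For either KO line over WT, such H3K27ac windows were no more frequent here than over all autosomes, as given above. From 9 to 10 Mb both KO lines were above the centre, at 0.44 in male KO cells and 0.42 in female KO cells. There they had 154 and 120 reads per kb against 51.7 in WT, and both values share that WT library. From 30 to 31 Mb the male KO line was at -0.79 over only 25.8 kb of shared bins, with 60.8 reads per kb against 47.6 in WT. Over the 23 windows, the male KO values of H3K4me3 and H3K27ac had a Pearson correlation of -0.39, and those of H3K4me3 and H3K27me3 of 0.23. The points share the line and the place on the chromosome but no library. H3K27me3 and H3K27ac had -0.12.

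**Figure D3:**
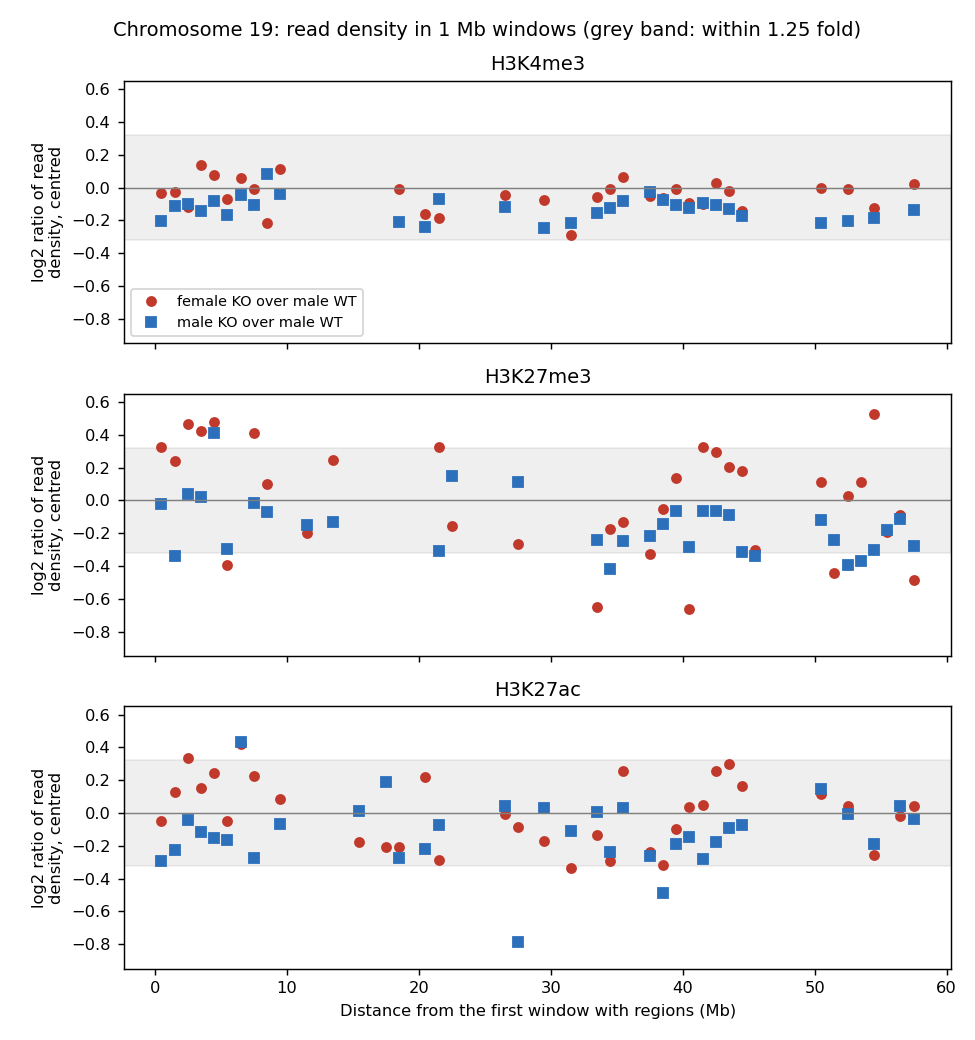
Centred log2 ratio of reads in shared bins for each 1 Mb window of chromosome 19 with at least 20 kb of shared bins, against the distance from the first window, for female KO (circles) and male KO (squares) over WT. In the H3K4me3 panel 30 of 31 squares are below 0 and all lie within the grey band of 0.32 on either side, and the circles of the H3K27me3 panel scatter from -0.66 to 0.53.

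The width of regions also enters these densities, because a count is spread over the length of its region. Regions of nearly the same width were therefore compared: 1 region in each of the 3 lists, touching no other, and the longest at most 1.5 times the shortest. This choice was made after seeing the data. In male KO cells the 124 matched H3K4me3 regions had a median of -0.14 (quartiles -0.32 and 0.0029), the 21 H3K27me3 regions -0.13 (-0.28 and 0.068) and the 54 H3K27ac regions -0.15 (-0.39 and 0.034). Below the centre were 92 of 124, 15 of 21 and 38 of 54, that is 74.2, 71.4 and 70.4%, where 50% of all matched autosomal regions are below by construction. In female KO cells 68 of 124, 10 of 21 and 29 of 54 were below, with medians of -0.034, 0.011 and -0.0038. Among autosomes the male KO medians ranked 1, 2 and 1 from the lowest, as against 1, 2 and 2 with shared bins.

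Which regions each line held was followed after the 3 lists of a mark were merged. On chromosome 19 this gave 590 H3K4me3, 935 H3K27me3 and 708 H3K27ac merged regions. For H3K27me3, 273 of 935 were in WT and neither KO list, 29.2% (95% Wilson interval 26.4 to 32.2%, counting error only), where the background over all autosomes was 13.1%. This was the highest share of the 19 autosomes. A further 64, or 6.84% (5.40 to 8.65%), were in the female KO and WT lists without the male KO list (background 3.68%), again the highest share. Regions in the male KO list alone numbered 69, or 7.38% (5.87 to 9.24%), against a background of 22.2%, and regions in both KO lists but not WT 47, or 5.03% (3.80 to 6.62%), against 10.3%. Both were the lowest shares of the autosomes. In all 3 lists were 246, or 26.3% (background 22.9%), and in the female KO list alone 176, or 18.8% (background 21.2%), and in male KO and WT 60, or 6.42% (background 6.65%). Not all of these ranks held under other settings. Where only regions reaching the median count of their list were kept, WT and neither KO list held 110 of 488 (22.5%, background 11.3%), rank 17 from the lowest. Both KO lists but not WT then held 33 (6.76%, background 11.4%), rank 4 from the lowest. In depth-scaled lists both KO lists but not WT held 28 of 858 (3.26%, background 4.68%), rank 7 from the lowest. These shares come from the same contrast as the covered length that chose the chromosome.

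H3K27ac patterns are given in the same way. In both KO lists but not WT were 32 of 708 regions, 4.52% (3.22 to 6.31%), against a background of 9.69%. Where a list had to cover 50% of a merged region, this count was 90 (12.7%, background 18.4%). In the male KO list alone were 75, or 10.6% (8.54 to 13.1%), against 16.5%. In WT and neither KO list were 77, or 10.9% (8.79 to 13.4%), against 8.02%, or 50 of 414 where only regions reaching the median count were kept (12.1%, background 7.70%), and in female KO and WT 36, or 5.08% (3.70 to 6.96%), against 2.56%. All 3 lists held 369, or 52.1% (48.4 to 55.8%), where the background was 44.6%. The female KO list alone held 65, or 9.18% (background 10.4%), and male KO and WT 54, or 7.63% (background 8.25%). For H3K4me3 the intervals of all 7 patterns included the background: 381 of 590 were in all 3 lists, 64.6% (60.6 to 68.3%) against 64.8%. In both KO lists but not WT were 13, or 2.20% (1.29 to 3.73%) against 3.17%, and in WT and neither KO 63, or 10.7% (8.44 to 13.4%) against 8.5%. Among regions reaching the median count of their list these were 3 and 19 of 308 (0.974 and 6.17%, backgrounds 2.58 and 3.50%). Female KO and WT shared 10 (1.69%, background 1.85%) and male KO and WT 41 (6.95%, background 6.72%). The female KO list alone held 27 (4.58%, background 4.56%) and the male KO list alone 55 (9.32%, background 10.4%). The H3K4me3 regions in all 3 lists were covered over 2.21 Mb in male KO cells and 2.98 Mb in WT.

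**Figure D4:**
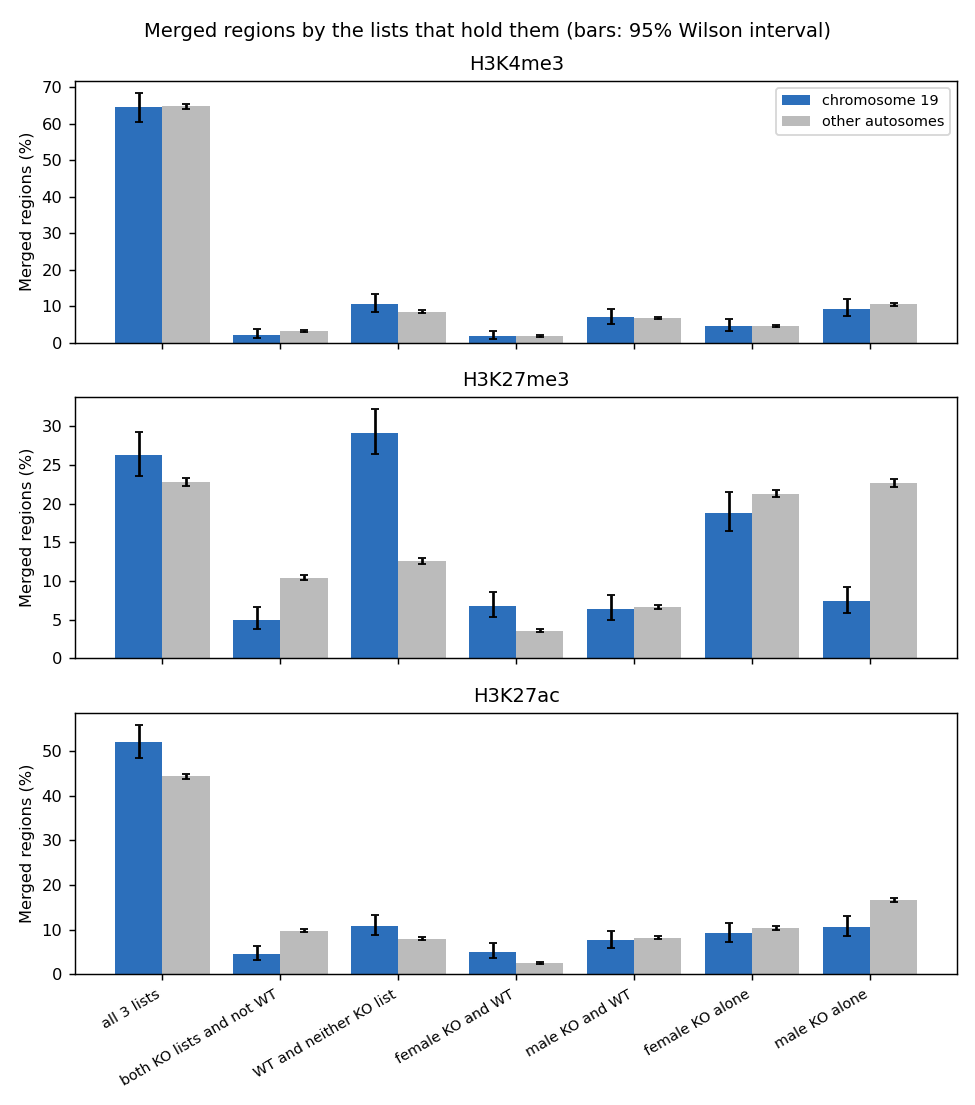
Share of merged regions held by each combination of the 3 lists of a mark, on chromosome 19 (blue) and on the other 18 autosomes (grey), with 95% Wilson intervals for counting error. The H3K27me3 panel shows the widest gaps, 29.2% against 12.6% for WT and neither KO list and 7.38% against 22.7% for male KO alone.

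The WT regions that had no counterpart in the KO lists were weak and narrow. The 273 H3K27me3 regions of WT alone had a median of 13.5 reads per kb (quartiles 12.2 and 15.3) and a median width of 2.6 kb. The 602 WT regions inside merged regions of all 3 lists had 16.7 reads per kb (14.6 and 19.6) and 6 kb. The regions of WT alone held 8.01% of the WT H3K27me3 reads on the chromosome and 11.1% of the covered length. For H3K27ac, WT alone had 20.5 reads per kb against 36.6 for regions in all 3 lists, and 3.76% of the reads. For H3K4me3 it had 40 against 172 reads per kb, and 1.15% of the reads. Most WT reads on chromosome 19 thus lay in merged regions of all 3 lists, 85.6% for H3K27me3, 88.1% for H3K27ac and 96.7% for H3K4me3. A WT region counted there need not itself overlap a region of each KO list.

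Overlap between lists was measured as a Jaccard index, shared length divided by joint length. Male KO and WT had 0.559 for H3K27me3, the highest of the autosomes, where the median of the others was 0.410. H3K27ac had 0.583 (rank 2, median of the others 0.516) and H3K4me3 0.642 (rank 18, median 0.672). The index is limited by unequal lengths, and on chromosome 19 the H3K27me3 and H3K27ac lists of the male lines were nearly equal in length. In the male KO H3K27me3 list 72.6% of the length lay in WT regions, against a median of 45.4% on the other autosomes. The WT list had 70.9% of its length in male KO regions, against 77.4%. Female KO and WT had 0.470, 0.464 and 0.695 for H3K27me3, H3K27ac and H3K4me3.

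H3K27me3 was distributed along the chromosome differently from H3K4me3 and H3K27ac. H3K4me3 and H3K27ac were densest in the first megabases, and the step from 5 to 6 Mb was the highest in all 3 lines for both. There H3K4me3 covered 449 kb in female KO cells, 251 kb in male KO cells and 337 kb in WT, and H3K27ac 596, 398 and 330 kb. H3K27me3 was densest from 56 to 57 Mb, with 822, 608 and 628 kb. The 10 richest of 59 steps held 49.4, 57.8 and 53.2% of the H3K27me3 length in female KO, male KO and WT cells. Covered kb per step of H3K4me3 and H3K27ac went together, with Pearson correlations of 0.92, 0.92 and 0.91 over the 59 steps. For H3K27ac and H3K27me3 they were 0.44, 0.18 and 0.073 in female KO, male KO and WT cells. Spearman correlations of that pair were higher, at 0.66, 0.45 and 0.30 in the same order of lines. Both marks of a pair were counted over the same steps, whose gene density and base composition were not measured here.

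H3K4me3 was shorter in male KO cells than in WT in 47 steps and longer in 7. Its ratio of covered length was between 0.720 and 0.865 in all 7 stretches of 10 Mb. The male KO H3K4me3 list was shorter than WT on every autosome, where the highest ratio was 0.963. Steps were not counted on the other autosomes, so the step counts here have no background. H3K27me3 was shorter in 31 steps and longer in 22. Its largest losses in male KO cells were from 17 to 18 Mb, with 47 kb against 143 kb in WT, from 54 to 55 Mb, with 202 against 298 kb, and from 22 to 23 Mb, with 27.2 against 112 kb. Its largest gain was from 10 to 11 Mb, with 406 against 287 kb. The female KO line also covered less than WT in the 3 steps of largest loss, with 69, 95.2 and 28 kb. H3K27ac was longer in male KO cells in 30 steps and shorter in 23, with its largest gain from 9 to 10 Mb, at 176 against 102 kb, and its largest loss from 55 to 56 Mb, at 80.2 against 147 kb. In female KO cells the largest H3K27me3 gains were from 41 to 42 Mb, with 602 against 280 kb, and from 29 to 30 Mb, with 322 against 16.8 kb.

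**Figure D5:**
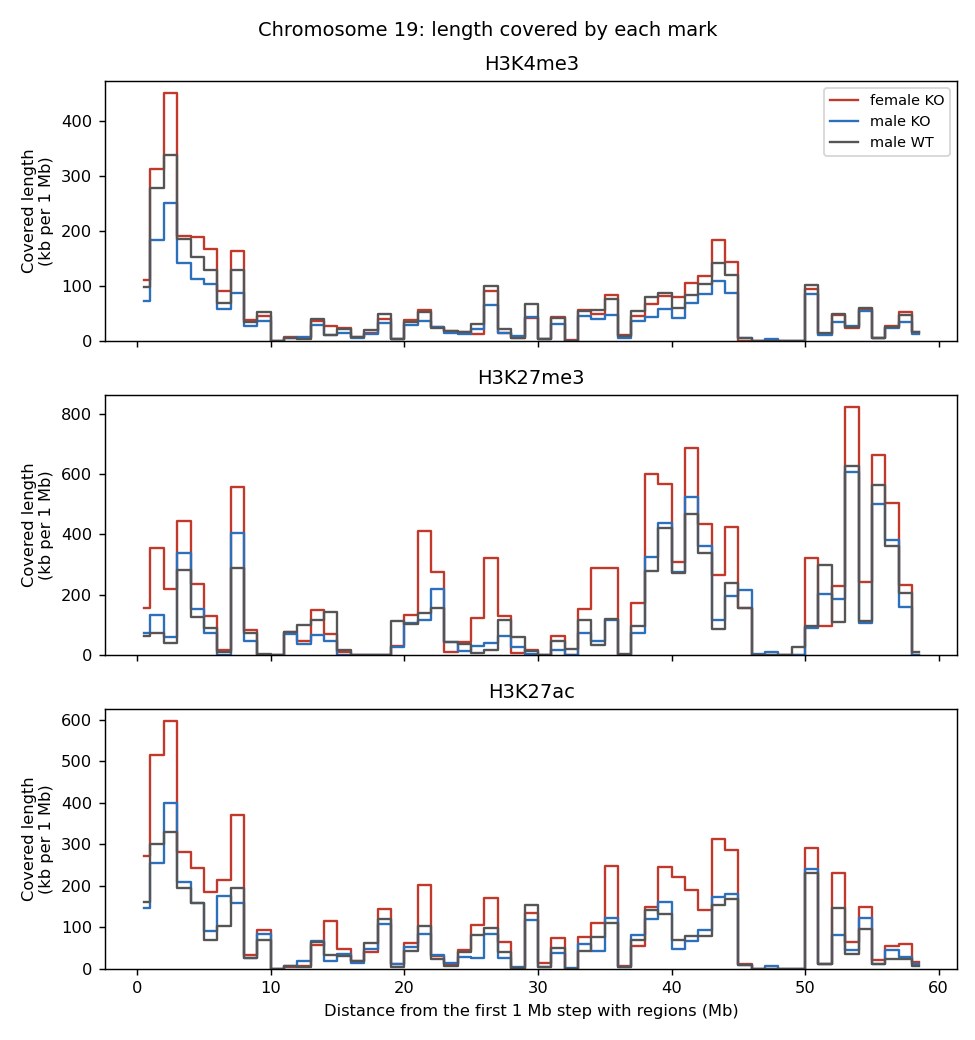
Length covered by regions in each 1 Mb step of chromosome 19, against the distance from the first step with regions, in the 3 lines and for the 3 marks. H3K4me3 and H3K27ac peak in the step from 5 to 6 Mb of the chromosome, at up to 449 and 596 kb, and H3K27me3 in the step from 56 to 57 Mb, at up to 822 kb.

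H3K4me3 regions stand in for promoters here, and the H3K27 marks over them were counted in each line. On chromosome 19, H3K27me3 overlapped 138 of 439 H3K4me3 regions in female KO cells, 31.4% (27.3 to 35.9%), 109 of 554 in male KO cells, 19.7% (16.6 to 23.2%), and 58 of 531 in WT, 10.9% (8.55 to 13.9%). On the other autosomes the shares were 29.0, 19.6 and 9.10%, within these intervals. H3K27ac overlapped 85.9, 77.1 and 80.0%, against 82.9, 77.9 and 74.9%. H3K27ac at WT H3K4me3 regions was the highest of the autosomes (interval 76.4 to 83.2%), it was also highest in female KO cells, and in male KO cells it was rank 13. Both H3K27 marks together, which in a cell population need not mean the same cells or alleles, were at 25 of 531 H3K4me3 regions in WT, 4.71% (3.21 to 6.86%), against 2.16% on the other autosomes. This too was the highest of the autosomes. In male KO cells both marks were at 41 of 554, 7.40%, against 7.37%, and in female KO cells at 103 of 439, 23.5% (19.7 to 27.6%), against 18.9%.

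At the 381 H3K4me3 regions that all 3 lists hold, H3K27me3 overlapped 32.3% in female KO cells, 14.7% (11.5 to 18.6%) in male KO cells and 13.4% (10.3 to 17.2%) in WT. On the other autosomes the shares were 29.8, 14.3 and 9.91%, so both KO intervals included that value and the WT interval lay above it. The male KO and WT intervals overlapped, but both shares are of the same 381 regions and their difference was not tested. Of these regions 25, 14 and 26 had H3K27me3 but no H3K27ac, in the same order of lines. H3K27ac but no H3K27me3 lay over 240, 293 and 287, and neither mark over 18, 32 and 43. These are 63.0, 76.9 and 75.3% with H3K27ac only (other autosomes 65.8, 79.3 and 73.9%) and 4.72, 8.40 and 11.3% with neither (other autosomes 4.36, 6.45 and 16.2%). In WT the interval for neither mark, 8.49 to 14.9%, was below the value of the other autosomes.

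Replacement of H3K27ac by H3K27me3 was counted at the 681 WT H3K27ac regions of the chromosome. The male KO line lacked 148 of them, 21.7% (18.8 to 24.98%), against 16.2% on the other autosomes, and the female KO line 132, 19.4% (16.6 to 22.5%), against 22.5%. Of the 148, 9 lay over H3K27me3 that WT lacked, 6.08% (3.23 to 11.2%), and of the 533 kept, 17, or 3.19% (2.001 to 5.05%). In female KO cells it was 32 of 132, 24.2% (17.7 to 32.2%), and 69 of 549, 12.6% (10.1 to 15.6%). The male KO intervals overlap, and the difference between lost and kept regions was not tested. On the other autosomes the shares were 6.90 and 2.35% in male KO cells and 17.0 and 9.24% in female KO cells. Of the 1023 WT H3K27me3 regions, the male KO line lacked 413, 40.4% (37.4 to 43.4%), against 24.1% on the other autosomes, and the female KO line 349, 34.1% (31.3 to 37.1%), against 25.9%. New H3K27ac lay at 7 of the 413 (1.69%) and 4 of the 349 (1.15%), where the other autosomes had 2.66 and 0.996%. Among WT H3K27me3 regions that the lines kept, it lay at 2.46 and 2.67%, where the other autosomes had 3.04 and 2.05%.

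The longest H3K27me3 domain of the chromosome, and a strong one, was held by all 3 lines. It ran from 44652401 to 44915600 (263 kb, mm9) and held 30351 reads in female KO cells, 8282 in male KO cells and 6509 in WT, over 263.2, 260.2 and 254.8 kb. This is 115, 31.8 and 25.5 reads per kb, and none of the lines had H3K27ac within it. H3K4me3 covered 10.8 kb of it in male KO cells and 3.4 kb in WT, and none in female KO cells. In the next, from 56922801 to 57106400, coverage was 183.6 kb in female KO, 146.2 kb in male KO and 163.4 kb in WT cells. A domain from 10365001 to 10545600 was covered over 169.2, 178 and 150.6 kb, and it also carried H3K4me3 in all 3 lines, over 25.6, 8.8 and 11.4 kb. Coverage of the domain from 56333401 to 56484800 was 151.4, 123 and 130.6 kb, in the same order. In the last of the 5, from 25582401 to 25733000, coverage was 146.8, 139.2 and 84.2 kb. The male KO line therefore covered more than WT in 3 of these 5 and less in 2.

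Of the H3K27me3 regions in both KO lists but not WT, 4 of the 5 longest were long only in female KO cells. The region from 10289201 to 10340200 was the exception: H3K27me3 covered all 51 kb of it in male KO cells and 33.6 kb in female KO cells. H3K27ac covered 19.4 kb of it in WT with 948 reads, 42.4 kb in female KO cells and none in male KO cells. H3K4me3 covered 10.6 kb in WT with 2035 reads and 7.6 kb in female KO cells with 1213 reads, and none in male KO cells. It lies just before the domain from 10365001 to 10545600. In the other 4 regions, from 4687801 to 4743000, from 41345601 to 41399800, from 5520001 to 5568000 and from 29910401 to 29957800, the female KO list covered 55.2, 54.2, 48 and 47.4 kb. Male KO coverage of the same regions was 4.8, 11.6, 10 and 7.4 kb. H3K27ac and H3K4me3 were present in all 3 lines in the first and the one from 5520001.

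The 5 longest H3K27me3 regions of WT without a KO counterpart were short by comparison, from 8.6 to 11.8 kb, with 13.4 to 14.3 reads per kb. They started at 52985001, 16987001, 54447201, 60219801 and 17051801. No H3K4me3 or H3K27ac region of any line overlapped them.

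The longest H3K4me3 regions were held by all 3 lines, with H3K27ac in all 3 lines. From 6044001 to 6091800 (47.8 kb), H3K4me3 reads numbered 13959 in female KO cells, 4853 in male KO cells and 10131 in WT, over 47.6, 38.4 and 46.8 kb. From 7036201 to 7078600 they numbered 13536, 4372 and 8959. The male KO list was the shortest of the 3 in each of the 5 regions, and in the one from 5020401 to 5058600 it covered 19.8 kb against 38.2 and 29 kb. That list was shorter than WT on every autosome. The longest regions of the other autosomes were not counted, so this count has no background. Only the region from 5079801 to 5120200 carried H3K27me3, over 16.4 kb in female KO cells, 10.2 kb in male KO cells and 6 kb in WT.

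H3K27me3 overlap was counted at the 13 H3K4me3 regions in both KO lists but not WT. Of these, 9 overlapped H3K27me3 of the female KO list, 8 that of the male KO list and 7 that of WT. The other autosomes were not counted in this way, so these counts have no background. The 5 longest regions are described here. From 43683601 to 43697000 H3K4me3 covered 13.4 kb with 2503 reads in female KO cells and 3.4 kb with 107 reads in male KO cells. H3K27ac covered 11.2 kb there in female KO cells only, and H3K27me3 covered all 13.4 kb in each line. A similar region, from 17026001 to 17034600, had 1421 and 40 H3K4me3 reads, H3K27ac over 8.6 kb in female KO cells only, and H3K27me3 over 5.4, 7.6 and 8.6 kb in female KO, male KO and WT cells. The region from 16944801 to 16951000 had 346 and 47 reads, no H3K27ac and, in each line, H3K27me3 along all 6.2 kb. By contrast, from 5403801 to 5409600 both KO lines had H3K4me3, with 559 and 264 reads, and H3K27ac, over 5.8 and 4.6 kb. WT had no region of any mark there, and no line had H3K27me3. The last, from 17908801 to 17913800, had 331 and 295 reads, and H3K27ac in both KO lines over 2.8 and 1.8 kb. H3K27me3 covered 3.6, 4 and 4.4 kb of it in female KO, male KO and WT cells. In 3 of the 5 the male KO reads were thus a small share of the female KO reads, and in the others the KO lines were close in length.

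Among H3K4me3 regions of WT alone, the one from 6260801 to 6267800 stood out with 946 reads over 7 kb, 135 reads per kb. The other 4 of the 5 longest, starting at 32253001, 38444601, 12561401 and 32977801, had 29.0 to 42.7 reads per kb. At 6260801 H3K27ac covered 5.8 kb in WT and 6 kb in female KO cells, and none in male KO cells. At 38444601 H3K27ac was in WT alone, over 4.8 kb, and the female KO line had H3K27me3 over 4.4 kb. The other 3 kept H3K27ac in all 3 lines.

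The longest H3K27ac region ran from 4077801 to 4177400, with 7491 reads over 99.6 kb in female KO cells, 3201 over 47.6 kb in male KO cells and 1701 over 48 kb in WT. Within it H3K27me3 covered 29.6 kb in female KO cells and 17.4 kb in male KO cells, and none in WT. From 53455001 to 53545800 H3K27ac covered 89.6, 83.2 and 75 kb. In the remaining 3, starting at 55287201, 9991201 and 43944201, the female KO list covered 94, 76.8 and 74.8 kb, the male KO list 29, 37.4 and 23 kb and the WT list 37.4, 40.4 and 28.6 kb. There the male KO list was shorter than WT in each.

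Of the H3K27ac regions in both KO lists but not WT, the one from 40320601 to 40337000 was the most alike in the KO lines, with 688 reads over 13 kb in female KO cells and 638 over 12.4 kb in male KO cells. It carried neither H3K4me3 nor H3K27me3 in any line. The longest, from 43566601 to 43618000, had 3075 reads over 51.4 kb in female KO cells and 129 reads over 2.2 kb in male KO cells. The regions from 8902401 to 8929400 and from 47527801 to 47541600 had 349 and 226 male KO reads, and WT held H3K4me3 there over 7.6 and 5 kb. The fifth, from 5399801 to 5412400, contains the H3K4me3 region of both KO lines named above, with 492 and 248 H3K27ac reads. The 5 longest H3K27ac regions of WT alone measured 7.4 to 9 kb and held 178 to 273 reads. They started at 24338201, 55665401, 29895001, 32481401 and 20723601, and 1 of them, at 29895001, lay in H3K27me3 of the female KO line over 5.8 kb.

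H3K27ac domains of any size, made by stitching neighbouring regions of the 3 lists, numbered 434 on chromosome 19. They were 2.63% of all autosomal domains and 19 of the 500 with the most reads, or 3.8%. Reads were scaled to the autosomal H3K27ac total of WT for this ranking, so a value below is not a raw count. The top domain, rank 6 of the autosomes, spanned 252 kb from 5634201 to 5886200, with 7814 scaled reads in female KO cells, 7300 in male KO cells and 7500 in WT. Rank 7, from 8942601 to 9189600, had 7645, 8204 and 6109. Rank 8, from 53455001 to 53655000, had 5355, 7256 and 7523. Rank 17, from 3995001 to 4340600, had 8239 in female KO cells, 3884 in male KO cells and 5906 in WT, and the KO lists had H3K27me3 over 54.6 and 21.8 kb of it where WT had 1.8 kb. The fifth, from 38020001 to 38136200, had 4799, 4906 and 5512. The male KO line was below WT in 4 of the 5 and above it in the one from 8942601. Its domains from 8942601 and 3995001 were beyond a log2 ratio of 0.32 from WT, the first higher and the second lower. In the female KO line the domains from 8942601 and 3995001 were higher beyond that limit and the one from 53455001 lower. Domains of the other autosomes were not counted in this way, so these counts have no background.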

How the data were processed

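ChIP-seq regions of 3 marks in 3 mouse pancreatic cancer lines, 1 library each, were read from the 9 lists the authors deposited. Per the submitters' processing notes, Bowtie 1.1.2, SICER 1 and mm9 were used; no control, false discovery rate or sequencing depth was stated there. The lists have no header: the fourth column, whole numbers, was used as the deposited count of reads per region. No list was filtered. Shares carry 95% Wilson intervals for counting error, with regions taken as independent.

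GenomeInfoDb 1.38.1 gave mm9 lengths. Scripts ran under Python 3.11.15 with pandas 2.3.3, numpy 2.4.6 and scipy 1.17.1; matplotlib 3.10.9 drew the plots. Lists became masks of 200 bp bins, and each count was spread evenly over its region. Overlap means at least 1 bp. Windows of 1 Mb needed 20 kb of bins held by all 3 lists, and counted as lower or higher beyond a log2 ratio of 0.32 from the centre. Regions are named by a rule: the 5 longest merged regions per mark that every line held, that only the KO lines held and that WT alone held; the 5 largest H3K27ac domains; the 3 lowest and highest windows per KO line. Other windows and steps were picked after their values were seen. Scripts were tested on simulated lists. Chromosome 19 and these lists of regions were chosen with earlier results of these data known. Positions count from 1 on mm9, and no gene was placed because the gene tables used another build.

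Alternatives were regions at or above the median count of their list, depth-scaled lists (counts scaled to the shallowest library by density in shared bins, and regions under percentile 1 of its reads per kb dropped), lists of the same covered length, windows of 2 Mb, bins of the KO and WT lists only, centring on summed autosomal reads, and an overlap of 50%. Matched regions and a centre without chromosomes 4, 6, 15 and 19 were added after seeing the data.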

Additional observations from a re-analysis of the deposited data

Results flagged for a closer look

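For H3K27me3 and H3K27ac the KO lines lay on opposite sides of the autosomal centre as reported. The median H3K27me3 window of chromosome 19 was at 0.10 in female KO cells and -0.15 in male KO cells, on the log2 scale. For H3K27ac the medians were 0.016 and -0.11. The female KO values changed side under other settings, so that both lines were then below the centre. H3K27me3 was at -0.030 with 2 Mb windows and -0.060 with the centre on summed reads. H3K27ac was at -0.0092 over bins of the KO and WT lists, -0.042 with the centre on summed reads and -0.0038 in matched regions. The difference was not tested, each value rests on 1 pair of libraries, and both share the WT library.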

How the results depend on the processing

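No paired analysis was possible because each mark and line had 1 library. Among autosomes the male KO covered length of chromosome 19 stayed lowest for all 3 marks in the stricter and depth-scaled lists, and ranked 1, 4 and 2 with lists of the same covered length. All values here are log2, relative to the autosomal median, unless named as counts or percent, and the cause of each change was not tested.

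For covered length, lists of the same length gave 0.092 (H3K4me3), 0.049 (H3K27me3) and 0.20 (H3K27ac) in female KO cells, and -0.46 (H3K27me3) and -0.28 (H3K27ac) in male KO cells. Female KO H3K4me3 was 0.0051 in regions at or above the median count, and female KO H3K27me3 was -0.35 in depth-scaled lists.

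For read density, windows of 2 Mb gave -0.039, -0.030 and 0.00055 for H3K4me3, H3K27me3 and H3K27ac in female KO cells and -0.13 for H3K27ac in male KO cells. Centring on summed reads gave -0.048, -0.060 and -0.042 in female KO cells and -0.13, -0.21 and -0.13 in male KO cells; it moved the centre of female KO H3K27me3 by 0.16. Bins of the KO and WT lists gave 0.050 and -0.0092 for the H3K27 marks in female KO cells and -0.18 and -0.13 in male KO cells. Regions at or above the median count gave 0.047 and 0.037 in female KO cells and -0.18 for male KO H3K27me3. Of the alternatives added after seeing the data, the centre without chromosomes 4, 6, 15 and 19 gave -0.020, 0.15 and 0.028 in female KO cells. Matched regions gave 0.011 and -0.0038 for its H3K27 marks, and -0.14, -0.13 and -0.15 in male KO cells. Male KO density was below the centre under every alternative run, for each mark.

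Among merged regions, those at or above the median count left 3 H3K4me3 regions in both KO lists but not WT, and 19 H3K4me3, 110 H3K27me3 and 50 H3K27ac regions of WT alone. Depth-scaled lists left 28 H3K27me3 regions in both KO lists but not WT, and an overlap of 50% gave 90 for H3K27ac. The percent of H3K4me3 regions with H3K27me3 was 25, 7.49 and 5.79 at or above the median count (female KO, male KO, WT), 18.0, 15.9 and 6.78 with 50% overlap, and 25.9 in the depth-scaled female KO list. Depth is unknown, so regions absent from a list may lie below its calling limit.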
